A study of Mus musculus with 4 samples.

Results

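The thrombospondin genes Thbs1, Thbs2, Thbs3, Thbs4 and Comp and the genes of the thrombospondin receptors CD36 and CD47 were read out by cell type in single-cell RNA-seq of mouse long bone. Members were chosen by gene symbol, and these 7 of the 53703 features in each count matrix make up the set. The study used 4 libraries, 2 from Lats2iECKO mutants and 2 from controls, prepared with 10x Genomics Chromium V3. Mutants carried loxP-flanked Lats2 alleles and the tamoxifen-inducible Cdh5(PAC)-CreERT2 transgene, which is driven by an endothelial promoter. Controls were Cre-negative littermates that also received the tamoxifen given at 4 to 5 weeks, although their labels call them untreated. All mice were on a C57/BL6 background, of both sexes, and were analysed at 12 weeks. Cells came from collagenase-digested metaphysis of femur and tibia after depletion of lineage-positive, CD45+ and CD117+ cells, a step that removes most blood cells. The study calls the libraries of a genotype biological replicates, and neither it nor the labels say how many animals each library holds, so every p-value here measures the spread between libraries.

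Thrombospondins are secreted, calcium-binding glycoproteins that act at the interface of cells and extracellular matrix. THBS1 and THBS2 are trimers whose type 1 repeats bind CD36 and restrain angiogenesis, and THBS1 can also activate latent TGF-beta. THBS3, THBS4 and COMP (thrombospondin 5) are pentamers that lack those repeats, and COMP is a major matrix protein of cartilage and tendon. CD36 is a scavenger receptor and fatty acid transporter of microvascular endothelium, platelets and erythroid precursors. CD47 is an almost ubiquitous surface protein that binds the C-terminal region of THBS1 and gives a "don't eat me" signal through SIRP alpha on phagocytes.

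Each barcode with at least 1000 UMIs and 800 genes was gated to a class by marker genes, none of which is a member. The kept barcodes numbered 5749 and 6703 in the mutant libraries and 7606 and 7649 in the control libraries, with median depths of 7188 to 7848 UMIs. The 12 main classes with at least 10 cells in every library were endothelial cells (EC), diaphyseal and metaphyseal stromal cells (dpMSC and mpMSC), osteoblasts (OB), chondrocytes (CHO), smooth muscle cells and pericytes (SMC), fibroblasts (FB), tendon cells, erythroid cells, megakaryocytes, progenitors and glia. A class name means only that its markers led. Values are CPM (UMIs of a gene scaled to the total of its class in that library) summed over the cells of a library, and 4 values in a row are mutant 1, mutant 2, control 1 and control 2. Cre-ERT2 in ECs was at 54.1, 48.0, 0.618 and 0.795 CPM, and Lats2 in ECs at 91.5, 94.4, 129 and 122 CPM (log2 fold change -0.36 ± 0.07 SE), so both genes separated the genotypes as labelled. Lats1, which was not targeted, was also lower in mutant ECs, at 25.9, 25.4, 38.8 and 34.0 CPM. Among EC subclasses Lats2 was called lower in arterial ECs alone (-0.54 ± 0.12). In metaphyseal ECs its change was -0.38 ± 0.16 (edgeR adjusted p = 0.070) and in sinusoidal ECs 0.01 ± 0.15. Libraries shared 7 to 22 kept barcodes, against 5.67 to 8.56 if barcodes were drawn at random. Cell-free RNA, read from droplets of 10 to 100 UMIs, held 2030 to 3029 CPM of Comp and 510 to 567 CPM of Thbs1, and its estimated level in each class is given where it matters.

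The members had different homes. Thbs1 was highest in megakaryocytes, Thbs2 and Thbs4 in tendon cells, Thbs3 in chondrocytes and FBs, Comp in chondrocytes and tendon cells, Cd36 in ECs and Cd47 in megakaryocytes. Genotype differences were called for 18 of the 45 member and class pairs that passed the filter, of 84 possible pairs, 15 higher and 3 lower in mutants. In the 9 subclasses of ECs, chondrocytes and smooth muscle cells, 14 of 36 tested pairs, of 63, were called, 10 higher and 4 lower. Over all genes 25.5% of tests in the main classes were called, 13.3% higher and 12.2% lower, and 26.4% of those in the subclasses, 13.7% higher and 12.7% lower. Calls were made with edgeR's quasi-likelihood test at a Benjamini-Hochberg adjusted p of at most 0.05 over all genes of a class. A comparison of 2 against 2 libraries by exact permutation cannot go below 0.333, so the calls rest on the variance model that all genes share. FBs, tendon cells, megakaryocytes, progenitors, bmECs, alECs and Myh11+ SMCs had no called member by edgeR or by DESeq2, with 3 members in tendon cells, 1 in alECs and 0 in the others at an unadjusted edgeR p below 0.05.

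**Figure D1:**
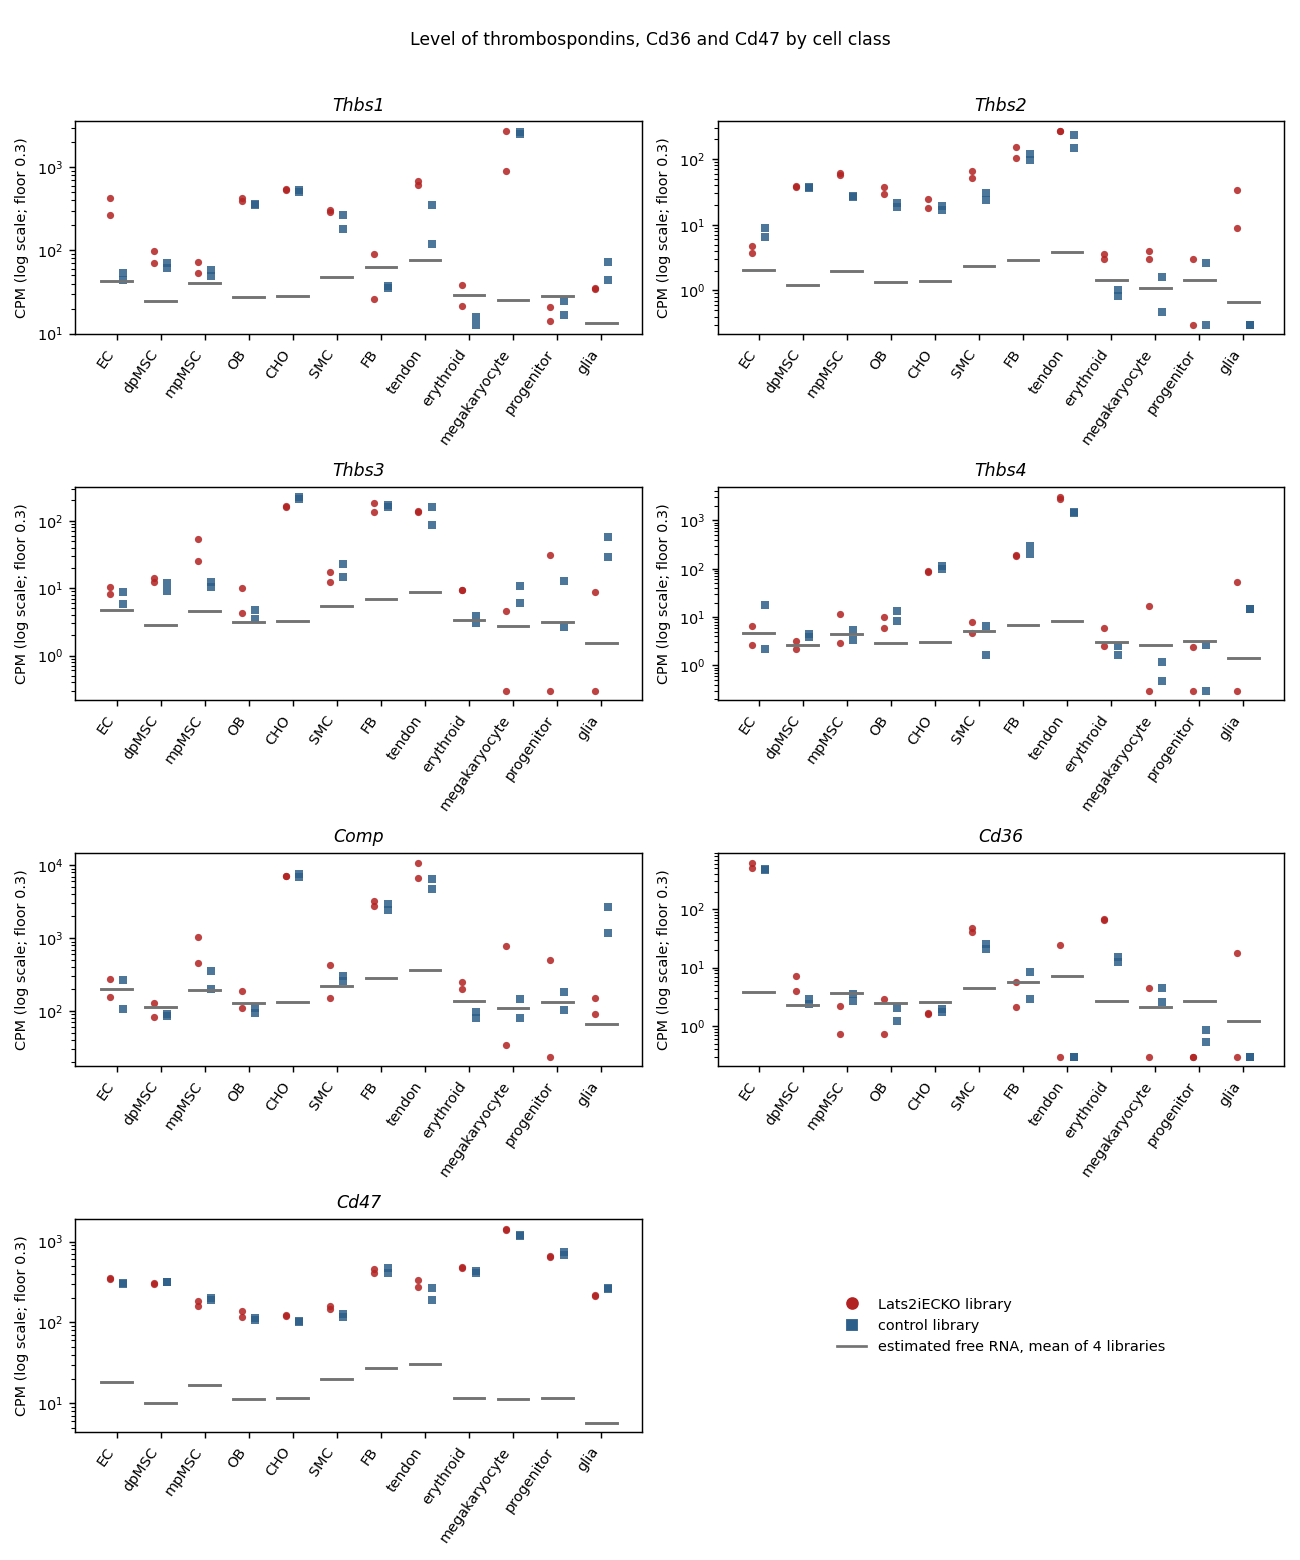
CPM of each gene (log scale, values under 0.3 drawn at 0.3) in the 12 main classes, with circles for the 2 Lats2iECKO libraries, squares for the 2 control libraries and grey bars for the estimated cell-free RNA averaged over the 4 libraries. Thbs1 in ECs stands at 269 and 429 CPM in mutants and on the grey bar in controls, and Cd36 is at 471 CPM or more in ECs of every library.

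Thbs1 (chr2:117941974-117957616, plus strand, 22 exons in its representative transcript) is the thrombospondin released from platelet granules. Its level in ECs was 429, 269, 53.6 and 43.6 CPM. Both mutant libraries lay above both controls, and the fold change on the log2 scale was 2.92 ± 0.16 (SE, edgeR adjusted p = 1.15e-09). The cell-free RNA estimate for these cells came to 96.9% of the control level and to 11.3% of the mutant level. After the estimate was subtracted the log2 fold change was 6.09. Little control signal was left then, so the size of this value depends on the residue of the subtraction. Cells with at least 1 Thbs1 UMI made up 28.9% and 33.7% of mutant ECs and 16.3% and 14.0% of control ECs. Thbs1 in ECs thus passed the filter of 20% of cells only through the mutants. Thinned to 2000 UMIs per cell, the shares were 18.4%, 19.9%, 7.21% and 5.78%. Erythroid cells, which are not known to make Thbs1 and had median depths of 5895 to 7182 UMIs against 5302 to 6376 in ECs, had a Thbs1 UMI in 8.02%, 8.28%, 7.60% and 8.59%, or 3.16%, 2.88%, 2.11% and 2.40% after thinning. Cell-free RNA was estimated at 6.86%, 5.68%, 3.95% and 5.08% of erythroid UMIs and 6.09%, 8.42%, 7.82% and 9.76% of EC UMIs. The erythroid shares can therefore understate the background in control ECs. A single cell held 18.0% of the UMIs in the first mutant library, and without the highest cell of each library the levels were 355, 257, 47.1 and 39.8 CPM. In ECs 3 of the 4 tested members were called, all higher in mutants, and 62.6% of all 5686 tested genes were. Genes called higher made up 31.3% of all tested genes.

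The rise in Thbs1 differed among EC subclasses. In metaphyseal (type H) ECs (mpEC) Thbs1 was at 431, 540, 60.0 and 47.9 CPM, and the fitted change was 3.23 ± 0.17 on the log2 scale (adjusted p = 1.43e-11). Here both control libraries stood above the cell-free level, which was 34.0% of their mean, and the genotypes did not overlap. Arterial ECs (aEC) held 6.77, 23.4, 21.8 and 30.1 CPM and sinusoidal bone marrow ECs (bmEC) 21.9, 51.5, 38.7 and 34.7 CPM. In both subclasses the genotypes overlapped, the cell-free estimate exceeded the measured means, and the filter left Thbs1 untested. Arteriole-like ECs (alEC) held 90.8, 96.3, 122 and 38.4 CPM, with a log2 fold change of 0.25 ± 0.33 (adjusted p = 0.71). Fitted together, the genotype effect on Thbs1 in mpECs exceeded the mean effect in the other EC subclasses by 3.32 ± 0.32 on the log2 scale (adjusted p = 1.8e-05). This was the only difference called among the 16 tested for the members in the 4 EC subclasses. All genes were called at 7.11% for mpEC against the rest, 2.56% for aEC, 1.11% for bmEC and 2.05% for alEC. Different clusters held most mpECs in each genotype, cluster 3 in mutants and cluster 24 in controls. With classes taken from clusters instead of the gate, the mpEC log2 fold change was 1.03 (adjusted p = 0.026).

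**Figure D2:**
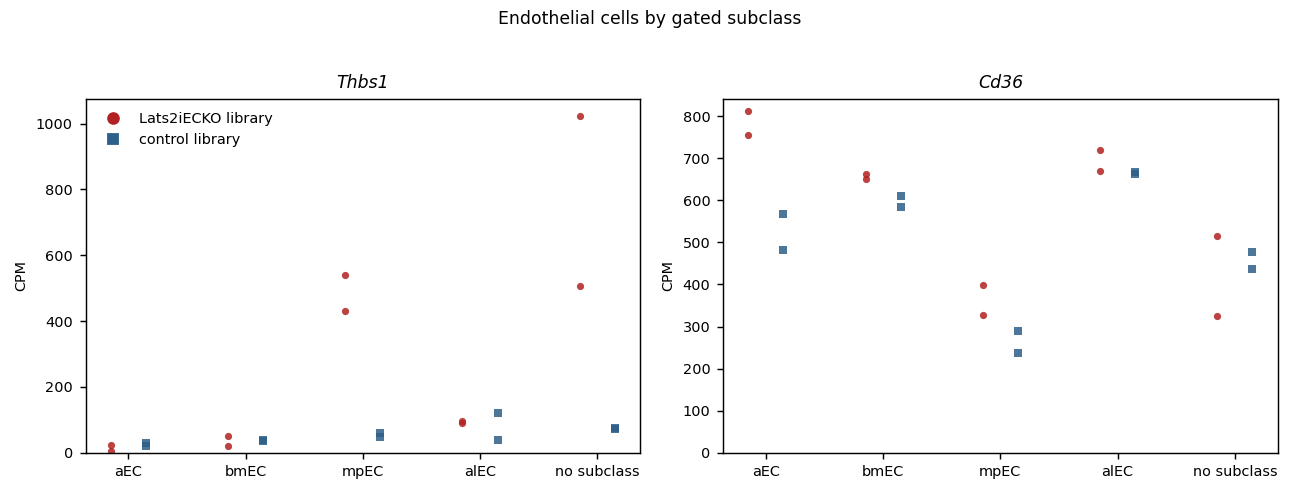
Thbs1 (left) and Cd36 (right) in CPM on linear axes in the gated EC subclasses and in ECs of no subclass, with circles for the 2 Lats2iECKO libraries and squares for the 2 control libraries. Thbs1 reached 1023 and 505 CPM in mutant ECs of no subclass and 431 and 540 CPM in mutant mpECs, and stayed below 130 CPM in every other point.

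ECs that met no subclass gate held 78.6% and 48.9% of the Thbs1 UMIs of mutant ECs and mpECs 16.6% and 39.1%. In controls the first group held 24.5% and 28.5% and mpECs 28.5% and 25.5%. The level in ECs of no subclass was 1023, 505, 73.8 and 72.7 CPM, with both mutants above both controls. Of the 449 cells of cluster 3, 315 belonged to no subclass and 119 were mpECs, and its leading genes included Apln, Nox4, Angpt2, Esm1, Pgf and Thbs1. Mutant libraries contributed 134 and 213 of its ECs and control libraries 51 and 51, at Thbs1 levels of 1344, 753, 176 and 105 CPM. Thbs1 helped define this cluster, so these levels are a description. In the 5 other EC clusters read out Thbs1 stayed at or under 120 CPM in every library. The paper lists Nox4, given as specific to mutants, beside Ramp3 and Aplnr as markers of its mpECs. Nox4 was not in the mpEC gate here. ECs of no subclass can therefore include cells that the paper would name mpECs, and how many was not tested. Markers of chondrocytes in ECs summed to 681, 1021, 665 and 993 CPM and markers of megakaryocytes to 24.3, 22.2, 44.0 and 43.5 CPM, and their part in the result was not tested.

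In one fit over all main classes the genotype effect on Thbs1 was larger in ECs than in 7 of the 11 other classes. The excess was 2.53 ± 0.53 over dpMSCs, 2.64 ± 0.56 over mpMSCs, 2.77 ± 0.52 over OBs, 2.77 ± 0.52 over chondrocytes, 2.47 ± 0.52 over SMCs and 3.85 ± 0.53 over megakaryocytes, all on the log2 scale. The seventh difference, 3.29 ± 0.90 over progenitors, rested on 6 to 28 UMIs per library, where Thbs1 had not passed the filter and the cell-free estimate exceeded the mean of both genotypes. Over the 77 tests of 7 members in 11 contrasts 13 were called. Among all 11209 genes the called share was 5.88% for ECs minus dpMSCs, 5.52% for mpMSCs, 8.6% for OBs, 16.2% for chondrocytes, 16.7% for SMCs, 0.946% for FBs, 0.509% for tendon cells, 20.9% for erythroid cells, 7.78% for megakaryocytes, 5.56% for progenitors and 0.214% for glia. For FBs, tendon cells, erythroid cells and glia the difference in Thbs1 was not called.

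Outside the endothelium Thbs1 was most abundant in megakaryocytes, at 916, 2738, 2647 and 2489 CPM, with a log2 fold change of -0.53 ± 0.46 (adjusted p = 0.70). These counts came from 23, 29, 110 and 90 cells. Of 3 members tested there none was called at an adjusted p of at most 0.05, where 0.156% of all genes were. Chondrocytes held 536, 544, 509 and 531 CPM (log2 fold change 0.14 ± 0.04, adjusted p = 0.0105). That call was lost in 4 of 15 alternatives, among them without mutant replicate 2 (0.13) and without control replicate 1 (0.11). Osteoblasts held 392, 432, 366 and 351 CPM, which did not pass the test (adjusted p = 0.14). In dpMSCs, at 98.0, 71.0, 70.0 and 61.2 CPM, the log2 fold change of 0.39 ± 0.13 (adjusted p = 0.0457) fell below the threshold without mutant replicate 1 (0.16) and without control replicate 2 (0.30), and was 0.63 without mutant replicate 2. The call was lost in 6 of 15 alternatives in all, and with classes taken from clusters the change was 0.04. Of the 3 members tested in dpMSCs this was the only call, against 37.6% of all genes. In tendon cells Thbs1 was at 616, 685, 120 and 350 CPM, without overlap, and its log2 fold change of 1.48 ± 0.41 did not pass the test (adjusted p = 0.32).

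The share of all Thbs1 UMIs contributed by ECs was 9.47% and 6.78% in mutants against 1.32% and 1.04% in controls. Chondrocytes contributed 66.3%, 61.1%, 42.6% and 46.5% and megakaryocytes 1.90%, 6.57%, 25.4% and 20.3%. Osteoblasts gave 3.40% and 4.28% of the mutant and 17.9% and 18.7% of the control Thbs1 UMIs. These shares combine the level per cell with the number of cells of each class, and ECs made up 10.1% and 11.3% of mutant and 11.8% and 11.5% of control barcodes. Chondrocytes made up 38.4% and 35.4% of mutant and 20.7% and 21.2% of control barcodes.

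**Figure D3:**
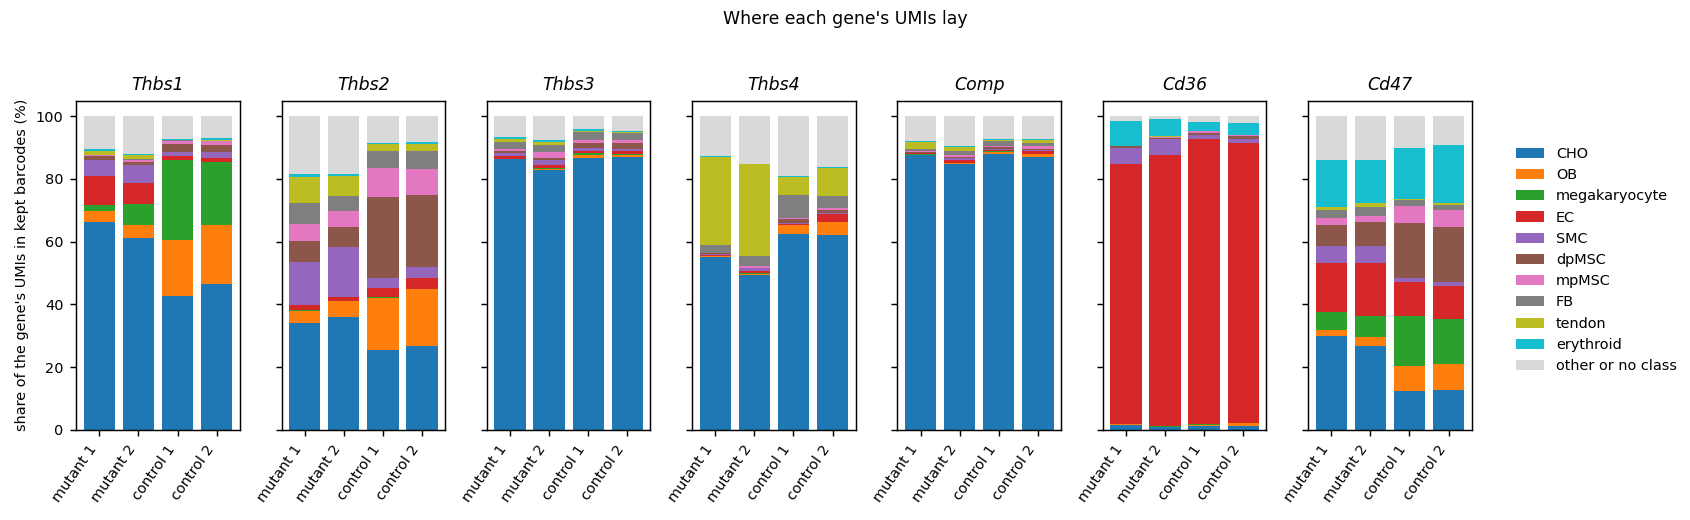
Share in percent of each gene's UMIs that lay in each class, as stacked bars summing to 100% for mutant 1, mutant 2, control 1 and control 2. Chondrocytes hold at least 82% of the Thbs3 and Comp UMIs in each library, ECs 83.1% to 90.7% of the Cd36 UMIs, and megakaryocytes a larger part of the Thbs1 UMIs in the controls.

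In SMCs together Thbs1 was at 289, 311, 181 and 266 CPM (log2 fold change 0.45 ± 0.13, adjusted p = 0.00847). Without control replicate 1 the change was 0.20 and no longer called, and without control replicate 2 it was 0.77. DESeq2 did not call it either. Contractile Myh11+ SMCs held 284, 263, 239 and 344 CPM, with overlap, and 12.8% of all genes but none of the 3 tested members were called there. Pericyte-like Myh11- SMCs held 257, 271, 31.9 and 48.2 CPM, with a log2 change of 2.83 ± 0.21 (adjusted p = 2.01e-07), and 26.3% of all genes were called. The difference of the effect between Myh11+ and Myh11- SMCs was -2.88 ± 0.24 for Thbs1 (adjusted p = 9.06e-07), where 10.7% of all genes were called. Most mutant Myh11- SMCs belonged to cluster 2, which held 245 and 289 mutant and 3 and 5 control SMCs, and most control cells to cluster 15. Within cluster 15 Thbs1 was at 137, 184, 117 and 113 CPM, and with classes taken from clusters the log2 fold change in Myh11- SMCs was 0.65 (adjusted p = 0.059). The gate of this subclass therefore compared largely different clusters.

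Thbs2 (chr17:14885761-14914528, minus strand) encodes the matricellular relative of THBS1 that is typical of fibroblasts. It was highest in tendon cells, at 267, 265, 232 and 148 CPM, and in FBs, at 151, 105, 95.8 and 120 CPM. Neither class passed the test, and the order of both classes held in every library. Of 6 members tested in tendon cells and 5 in FBs none was called, against 0.123% and 1.93% of all genes.

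Thbs2 rose in mutant mpMSCs, SMCs and OBs as gated. In mpMSCs it was at 61.0, 56.9, 27.3 and 26.3 CPM, with a log2 change of 1.19 ± 0.14 (adjusted p = 3.12e-05). In SMCs it was at 52.3, 65.4, 24.2 and 30.7 CPM (1.13 ± 0.17, adjusted p = 4.88e-05) and in OBs at 29.6, 37.6, 18.8 and 21.5 CPM (0.74 ± 0.15, adjusted p = 0.0143). Over all control SMCs the share of cells with a Thbs2 UMI was under 20%. Thbs2 thus passed the filter of 20% of cells in SMCs only through the mutants, the group where it is high. In all 3 classes both mutants lay above both controls, and the cell-free estimate was at most 6.12% of either genotype's mean. The classes also differed in depth or composition between genotypes. Mutant mpMSCs were mostly of cluster 10 and control mpMSCs of clusters 30 and 33, mutant SMCs of clusters 2 and 5 and control SMCs of cluster 5, and OBs had median depths of 9102 UMIs in mutants and 16277 in controls. With classes taken from clusters Thbs2 in mpMSCs was at 18.2, 35.1, 25.9 and 27.1 CPM, with overlap, and could not be tested, whereas the SMC and OB calls held. Within SMC cluster 5 Thbs2 stood at 10.1, 9.33, 10.7 and 11.7 CPM and within cluster 15 at 40.5, 81.8, 55.7 and 81.0 CPM, so it was not higher in both mutants in either cluster, and mutant cells of cluster 2 held 76.5 and 99.4 CPM. In dpMSCs, the other stromal class, Thbs2 stood at 37.3, 39.1, 36.6 and 37.8 CPM, with overlap. Called members were 2 of 4 in mpMSCs, 1 of 4 in OBs and 3 of 4 in SMCs, against 28.7%, 8.8% and 49.7% of all genes, and in SMCs 24.9% of all genes were called higher.

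In ECs Thbs2 stood at a far lower level of 4.70, 3.77, 6.49 and 8.91 CPM, with both mutants below both controls. The filter left it untested there, so a fall in ECs is not shown. The joint fit gave differences of the genotype effect, ECs minus the other class, of -1.99 ± 0.35 for mpMSCs, -1.50 ± 0.35 for OBs, -1.13 ± 0.33 for chondrocytes and -1.93 ± 0.36 for SMCs. Thbs2 had not passed the filter in chondrocytes either, where the genotypes overlapped, at means of 21.2 CPM in mutants and 18.0 CPM in controls. The same difference against erythroid cells, -2.99 ± 0.62, rested on levels of 0.813 to 3.59 CPM, near the cell-free estimate. Cell-free RNA came to 56.8% of the mutant and 21.8% of the control level in ECs. Within the mural subclasses Thbs2 overlapped between genotypes, at 54.2, 79.0, 50.5 and 79.4 CPM in Myh11- SMCs and 13.6, 16.7, 15.3 and 17.3 CPM in Myh11+ SMCs.

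Thbs3 and Thbs4 encode pentameric thrombospondins of skeletal tissues, THBS3 in cartilage and bone and THBS4 in tendon and muscle. Thbs3 lies at chr3:89122461-89134144 (plus strand, with Mtx1 on the opposite strand overlapping it) and Thbs4 at chr13:92888095-92931501 (minus strand), both on GRCm39. Both were called lower in mutants over all chondrocytes, though not in every cluster of them, as given below. Their promoters are printed here, each with 250 bases before and 50 after the transcription start, 5′ to 3′ on the gene's strand, from RefSeq on GRCm38.p6. Capitals mark the letters CATTCC or GGAATG, the core motif of the TEAD factors through which YAP acts downstream of LATS kinases.
Thbs3 (chr3:89214930-89215229): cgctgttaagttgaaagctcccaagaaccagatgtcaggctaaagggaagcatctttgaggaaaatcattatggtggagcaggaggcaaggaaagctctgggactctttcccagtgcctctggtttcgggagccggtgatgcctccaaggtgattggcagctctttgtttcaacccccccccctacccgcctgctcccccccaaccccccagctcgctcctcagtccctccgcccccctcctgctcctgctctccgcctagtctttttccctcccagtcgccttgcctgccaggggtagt
Thbs4 (chr13:92794769-92795068): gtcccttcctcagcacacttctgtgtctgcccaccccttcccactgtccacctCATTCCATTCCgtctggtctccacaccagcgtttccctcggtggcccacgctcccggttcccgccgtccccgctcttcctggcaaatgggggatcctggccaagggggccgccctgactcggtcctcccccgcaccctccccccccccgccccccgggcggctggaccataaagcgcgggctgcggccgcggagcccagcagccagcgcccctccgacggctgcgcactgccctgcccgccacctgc
The Thbs4 window held 2 overlapping copies of CATTCC, starting at positions -197 and -192 from the start, and the Thbs3 window none. Of 32851 mouse promoters of this length, 14.7% held this motif on either strand. The Thbs4 window held 3 and the Thbs3 window 1 match to the SP1 motif GGGCGG (or CCGCCC), present in 35.7% of promoters, and neither held an SRF CArG box, present in 1.63%. The GC content was 72.0% for Thbs4 and 59.0% for Thbs3. Windows of Thbs2, Cd36 and Cd47 held no TEAD or CArG match, and Thbs1 and Comp had no entry. A match describes the letters of the window and not binding. In chondrocytes Cre-ERT2 was at 0.033, 0.195, 0.0 and 0.0 CPM. Lats2 was there at 40.0, 42.9, 44.2 and 45.2 CPM (log2 fold change -0.02 ± 0.06, edgeR adjusted p = 0.75). A link of these promoters to YAP was not tested.

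Thbs3 was a chondrocyte gene, with 82.8% to 87.0% of its UMIs in that class. It stood there at 164, 158, 213 and 225 CPM, with a log2 change of -0.36 ± 0.05 (adjusted p = 5.42e-06), with both mutants below both controls. Mutant chondrocytes lay mostly in clusters 1, 9 and 6 and control chondrocytes in clusters 40, 27 and 42. Cluster 1 held 654 and 689 mutant and 2 and 4 control chondrocytes, with Thbs3 at 23.6 and 24.1 CPM in the mutants. The part of this cluster in the fall was not tested. Within clusters Thbs3 was lower in both mutants in cluster 13, at 69.2, 68.7, 92.2 and 100.03 CPM. It was higher in both mutants in cluster 9, at 281, 285, 222 and 252 CPM, in cluster 40, at 404, 368, 321 and 318 CPM, and in cluster 46, at 264, 288, 258 and 260 CPM, and it overlapped in clusters 0, 6, 17, 27 and 42. FBs held a like level, 181, 136, 168 and 161 CPM, with overlap between genotypes (0.02 ± 0.17, adjusted p = 0.97). Thbs4 in chondrocytes was at 90.2, 84.2, 98.2 and 117 CPM (log2 fold change -0.21 ± 0.07, adjusted p = 0.01). That call was lost in 4 of 15 alternatives, among them without mutant replicate 2 (-0.16) and without control replicate 2 (-0.08). Without control replicate 1 the change was -0.34. Within clusters Thbs4 lay lower in both mutants in cluster 0, at 244, 266, 505 and 424 CPM, in cluster 6, at 181, 169, 382 and 464 CPM, and at lower levels in clusters 9, 40 and 42. In cluster 13 it was at 97.9, 68.1, 76.1 and 53.2 CPM, with overlap. Of 5 members tested in chondrocytes 4 were called, 2 higher and 2 lower, against 63.8% of all genes.

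The fall in Thbs3 was largest, of the 3 chondrocyte subclasses, in hypertrophic chondrocytes (HCHO), the cells at the end of growth plate maturation. There it was at 86.4, 91.3, 172 and 198 CPM, with a log2 change of -1.0 ± 0.08 (adjusted p = 1.38e-05). Columnar chondrocytes (CCHO) held 270, 265, 273 and 267 CPM, with overlap. Prg4-type resting or articular chondrocytes (RCHO) held 92.2, 88.1, 108 and 121 CPM, with a change of -0.30 ± 0.08 (adjusted p = 0.0201). That call was lost in 4 of 15 alternatives, among them DESeq2, without mutant replicate 2 (-0.27) and without control replicate 2 (-0.21). The difference of the Thbs3 effect between HCHOs and the other chondrocyte subclasses was -0.90 ± 0.09 (adjusted p = 5.08e-05). Thbs4 followed another order and was highest in RCHOs, at 249, 235, 258 and 282 CPM, and lowest in HCHOs, at 24.6, 8.10, 13.3 and 15.7 CPM.

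Comp (chr8:70826192-70834716, plus strand) had its highest levels in chondrocytes and tendon cells. In chondrocytes it was at 7035, 7098, 6970 and 7510 CPM, with overlap (0.05 ± 0.05, adjusted p = 0.33). In tendon cells it was at 10765, 6620, 4681 and 6394 CPM, so the order of these classes did not hold beyond the spread between libraries. By subclass Comp moved in opposite directions. HCHOs held 4980, 4826, 7967 and 9294 CPM (log2 fold change -0.76 ± 0.07, adjusted p = 3.16e-05), CCHOs 5920, 6262, 5073 and 5133 CPM (0.35 ± 0.04, adjusted p = 6.06e-06) and RCHOs 9809, 10298, 9884 and 9089 CPM (0.13 ± 0.06, adjusted p = 0.14). The genotypes overlapped in RCHOs alone. Mutant CCHOs lay mostly in clusters 9 and 6 and control CCHOs in clusters 42 and 40. Among chondrocytes of cluster 42 Comp was lower in both mutants, at 2996, 2656, 3377 and 3497 CPM, and it overlapped in cluster 6. It was higher in both mutants in cluster 9, at 8589, 8367, 6961 and 7312 CPM, and in cluster 40, at 7220, 6913, 6548 and 6756 CPM. Thbs1 showed the same split, with 227, 209, 311 and 337 CPM in HCHOs (-0.51 ± 0.08) and 603, 598, 540 and 493 CPM in CCHOs (0.32 ± 0.06). The CCHO change was 0.15 and not called under a stricter gate, 0.25 and not called with no filter, and 0.94 with classes taken from clusters. In cluster 42 Thbs1 was lower in both mutants, at 565, 504, 788 and 709 CPM, as it was in cluster 40, at 293, 250, 296 and 316 CPM. In cluster 6 it was higher in both mutants, at 1409, 1292, 1103 and 1107 CPM, and in cluster 9 it overlapped. The receptor gene Cd47 rose in HCHOs, at 105, 108, 70.9 and 62.6 CPM (0.74 ± 0.07, adjusted p = 3.6e-05). In CCHOs Cd47 was at 93.0, 83.7, 82.0 and 77.8 CPM, with a called change of 0.24 ± 0.08. That call was lost in 4 of 15 alternatives, among them without mutant replicate 1 (0.17) and without control replicate 2 (0.21).

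**Figure D4:**
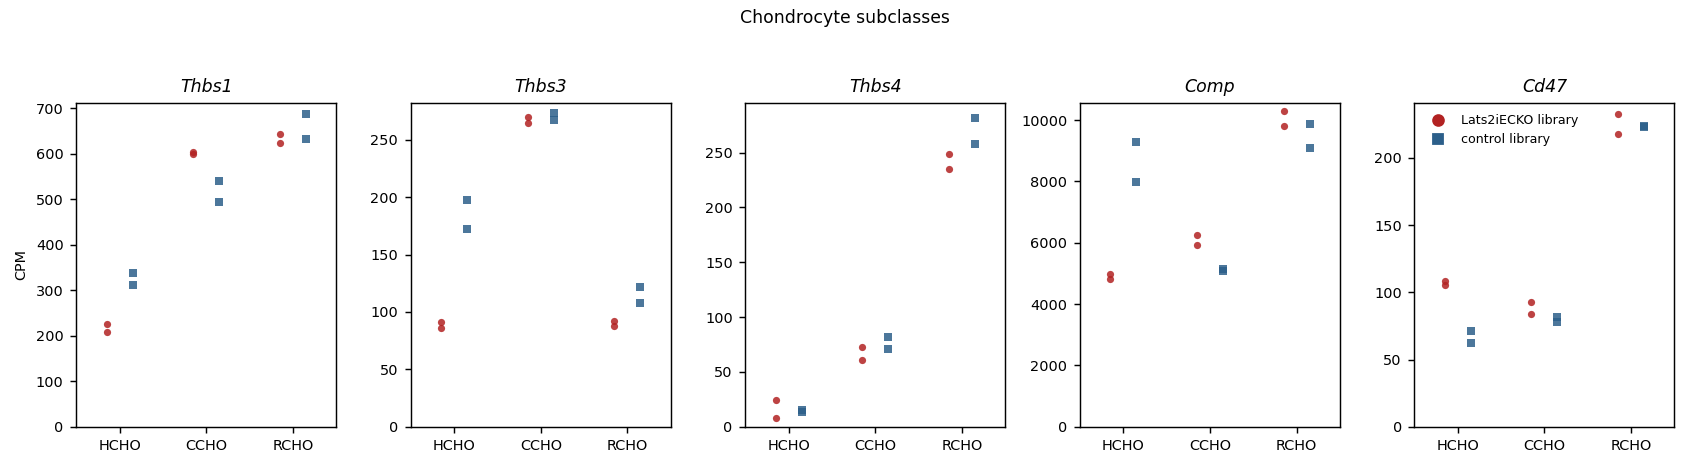
CPM of 5 members on linear axes in hypertrophic (HCHO), columnar (CCHO) and Prg4-type (RCHO) chondrocytes, with circles for the 2 Lats2iECKO libraries and squares for the 2 control libraries. In HCHOs Thbs1, Thbs3 and Comp lie lower and Cd47 higher in both mutants, whereas Thbs3 in CCHOs lies between 265 and 273 CPM in every library.

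Called members were 4 of 4 in HCHOs (3 of them lower), 3 of 5 in CCHOs and 1 of 6 in RCHOs, against 56.2%, 33.5% and 19.8% of all genes, and 28.0% of all genes were called lower in HCHOs. Compared in a fit of their own, which was added once the levels had been seen, HCHOs differed from the other chondrocyte subclasses by -0.68 ± 0.09 for Thbs1, -1.01 ± 0.08 for Comp and 0.57 ± 0.09 for Cd47. All genes were called at 36.2% in that contrast, 10.4% for CCHOs and 28.5% for RCHOs. The 10 chondrocyte markers in HCHOs summed to 41769, 41355, 71556 and 75416 CPM, each of them lower in both mutants, and the median depth was 9136 UMIs in mutants and 17027 in controls. Most mutant HCHOs belonged to cluster 1, which held 654 and 689 mutant chondrocytes and 2 and 4 control chondrocytes, and most control HCHOs to cluster 27. In cluster 1 the mutant libraries held Comp at 400 and 357 CPM, Thbs3 at 23.6 and 24.1 CPM and Thbs1 at 120 and 76.4 CPM. Among chondrocytes of cluster 27 none of these 3 genes was lower in both mutants than in both controls. Comp was there at 9593, 10032, 7958 and 9608 CPM, Thbs3 at 183, 201, 188 and 223 CPM and Thbs1 at 439, 437, 342 and 376 CPM. Cd47 in cluster 27, at 76.8, 76.5, 71.0 and 59.1 CPM, kept both mutants above both controls, and in cluster 1 it was at 128 and 131 CPM.

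Tendon cells held Thbs4 at 2745, 3047, 1415 and 1488 CPM, from 51, 57, 15 and 25 cells. Both mutants lay above both controls, and the log2 fold change of 1.08 ± 0.23 did not pass the test (adjusted p = 0.21) in a class where 7 of 5683 genes did. Tendon cells supplied 27.9% and 29.3% of all Thbs4 UMIs in mutants against 5.77% and 9.05% in controls. FBs held Thbs4 at 191, 181, 299 and 205 CPM (-0.36 ± 0.18, adjusted p = 0.33).

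Comp was also counted in cells that are no usual source of it. ECs held 155, 279, 107 and 269 CPM, with overlap, and the cell-free estimate was 96.3% of the mutant and 102% of the control mean. In mpMSCs Comp was at 456, 1051, 201 and 359 CPM (log2 fold change 1.5 ± 0.31, adjusted p = 0.00274), with the cell-free estimate at 30.6% of the mutant and 55.2% of the control mean, and without mutant replicate 2 the change was 0.76. The change was not called under a stricter gate (0.55, adjusted p = 0.27) and turned to -0.60 with classes taken from clusters. Single cells held 27.6% and 33.0% of the mutant Comp UMIs in mpMSCs, and the 10 chondrocyte markers there summed to 965, 1783, 375 and 1203 CPM. Erythroid cells held Comp at 250, 198, 96.1 and 81.2 CPM, with the cell-free estimate at 79.5% of the mutant and 111% of the control mean. The log2 fold change there was 1.82 ± 0.11 (adjusted p = 1.31e-10). It ran from 0.35 to 3.06 over 15 alternatives, with the call lost in 1. In Myh11- SMCs Comp was at 128, 282, 26.6 and 48.2 CPM, below the cell-free estimate in both genotypes, and the change of 2.58 ± 0.41 was 0.31 without doublets and -0.98 with classes taken from clusters. A Comp UMI was in 24.2%, 33.0%, 16.7% and 22.4% of these cells. Over the control cells together the share was under 20%, so Comp passed the filter there only through the mutants. In glia Comp was at 91.2, 150, 2706 and 1191 CPM, and 1 cell held 87.0% and 93.9% of the UMIs in the control libraries. Without the highest cell of each library, glia held 70.3, 81.3, 421 and 82.0 CPM. The part of free RNA and of mixed barcodes in these calls was not tested further. Comp was the only call in glia, of 2 members tested, against 2.15% of all genes.

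Cd36 (chr5:17986432-18094067, minus strand) was an endothelial gene, with 83.1%, 86.6%, 90.7% and 89.2% of its UMIs in ECs. Its level in ECs was 516, 618, 493 and 471 CPM, with a log2 change of 0.31 ± 0.08 (adjusted p = 0.0027), and without mutant replicate 2 the change was 0.17 and no longer called. The rise was clearest in aECs, at 754, 811, 566 and 481 CPM (0.65 ± 0.09, adjusted p = 0.000444). The share of aECs with a Cd36 UMI was 61.5%, 62.2%, 43.6% and 43.2%, and after thinning 49.8%, 47.5%, 34.5% and 35.9%. In mpECs Cd36 was at 327, 399, 289 and 237 CPM (0.54 ± 0.15, adjusted p = 0.00813), with the change at 0.40 and not called without control replicate 2 and at 0.34 without mutant replicate 2. The mpEC call was lost in 5 of 15 alternatives, over which the change ran from 0.34 to 1.04. Cluster 3, which led among mutant mpECs, went the other way over all its ECs, with Cd36 at 197, 336, 1015 and 1094 CPM, and in cluster 24, which led among control mpECs, it was at 269, 617, 237 and 203 CPM. Levels in bmECs were 650, 662, 584 and 609 CPM and in alECs 668, 718, 668 and 661 CPM, and neither passed the test. The differences of the Cd36 effect between subclasses were not called, so the rise in aECs is not shown to exceed that in the others. Cd36 levels in ECs exceeded those of every other class, the next being erythroid cells and SMCs with 12.4 to 67.2 CPM. In SMCs Cd36 did not pass the filter and averaged 44.4 CPM in mutants and 23.0 CPM in controls, without overlap. In SMC cluster 15 Cd36 was at 238, 295, 34.6 and 48.6 CPM and in cluster 5 at 24.8, 21.3, 9.85 and 11.7 CPM. Mutant cells of cluster 2, which held few control cells, were at 0.0 and 6.32 CPM.

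In erythroid cells, whose precursors carry CD36 on their surface, Cd36 was at 66.4, 67.2, 12.4 and 15.4 CPM. Both mutants lay above both controls, with a log2 fold change of 2.74 ± 0.13 (adjusted p = 1.03e-11). The share of erythroid cells with a Cd36 UMI was 22.4%, 19.0%, 7.85% and 9.72%, and after thinning 9.03%, 7.75%, 1.99% and 2.72%. Cd36 thus passed the filter of 20% of cells only through the mutants, the group where it is high. In dpMSCs, which are no usual source of Cd36 and had median depths of 5598.5 to 6099 UMIs, the share was 2.45%, 1.71%, 0.839% and 1.29%, and after thinning 0.795%, 0.713%, 0.407% and 0.426%. The genotype effect in ECs was smaller than in erythroid cells by 2.32 ± 0.23 on the log2 scale (adjusted p = 7.34e-08). The endothelial markers in erythroid cells summed to 72.8, 49.9, 34.8 and 55.5 CPM, and the cell-free estimate was 5.32% of the mutant and 12.9% of the control Cd36 level. Different clusters held these cells, with clusters 20 and 21 leading in mutants and clusters 21 and 31 in controls. Under the study's own barcode filter, which limits hemoglobin reads, without doublets and with classes from clusters Cd36 did not pass the filter of 20% of cells. All 3 members tested in erythroid cells were called, against 34.5% of all genes. The scale of this class moved with normalization. Fitted log2 fold changes lay 0.48 above the log2 ratio of mean CPM for the members of this class, against at most 0.12 in size in the other classes, so that the ratio was 2.27 for Cd36 and 0.19 for Cd47, whose fitted change was 0.67.

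Cd47 (chr16:49620896-49735373, plus strand) was detected in every class, and its highest levels were in megakaryocytes, at 1434, 1400, 1181 and 1220 CPM, followed by progenitors, at 638, 670, 737 and 690 CPM. Neither class passed the test for Cd47. Progenitors had 2 members tested and none called, against 1.83% of all genes. In ECs Cd47 was at 356, 344, 310 and 300 CPM (0.27 ± 0.06, adjusted p = 0.0019), in chondrocytes at 122, 121, 104 and 100 CPM (0.34 ± 0.04, adjusted p = 4.3e-06) and in SMCs at 159, 145, 125 and 115 CPM (0.37 ± 0.09, adjusted p = 0.0034). In each of these 3 classes both mutants lay above both controls, and the SMC call was lost without control replicate 2 (0.32). Within SMCs Cd47 overlapped in Myh11+ SMCs, at 102, 98.6, 111 and 96.8 CPM (-0.02 ± 0.15, adjusted p = 0.96). Myh11- SMCs held 198, 178, 151 and 170 CPM, without overlap (0.33 ± 0.16, adjusted p = 0.14). Myh11+ SMCs made up 20.7% and 21.6% of mutant and 60.4% and 60.8% of control SMCs. By cluster Cd47 was higher in both mutants in cluster 5 and overlapped in cluster 15, and the part of composition was not tested. In erythroid cells Cd47 was at 469, 490, 412 and 428 CPM (0.67 ± 0.10), a call lost without control replicate 1 (0.63) and without control replicate 2 (0.70) and turned to -0.49 under the study's barcode filter. Stromal cells held 304, 300, 316 and 317 CPM in dpMSCs and 182, 160, 198 and 187 CPM in mpMSCs, where both mutants lay below both controls and neither difference passed the test. Their effects were not shown to differ from that in ECs, which was larger by 0.31 ± 0.20 than in dpMSCs (adjusted p = 0.46) and by 0.38 ± 0.20 than in mpMSCs (adjusted p = 0.35). In OBs, at 116, 139, 114 and 107 CPM, both mutants lay above both controls and the change of 0.21 ± 0.07 did not pass the test (adjusted p = 0.13). Within ECs the call was made in aECs, at 332, 310, 263 and 249 CPM (0.40 ± 0.10, adjusted p = 0.0107). It was lost in 3 of 15 alternatives, with DESeq2, without mutant replicate 1 (0.35) and without control replicate 2 (0.36). In mpECs Cd47 was at 380, 353, 310 and 300 CPM, without overlap (0.33 ± 0.13, adjusted p = 0.059). The effect in aECs was not shown to exceed that in the other EC subclasses (difference 0.26 ± 0.13, adjusted p = 0.37). Mutant ECs lay mostly in clusters 3, 12 and 19 and control ECs in clusters 24, 25 and 4, and mutant aECs mostly in cluster 12 and control aECs in cluster 4. Of these EC clusters Cd47 was higher in both mutants in cluster 12, at 333, 337, 271 and 253 CPM, was lower in both in cluster 19, at 434, 456, 491 and 462 CPM, and overlapped in the others. Called members were 2 of 3 in aECs, 0 of 3 in bmECs, 2 of 4 in mpECs and 0 of 4 in alECs, against 24.5%, 14.1%, 33.4% and 5.72% of all genes, and 16.3% were called higher in mpECs.

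**Figure D5:**
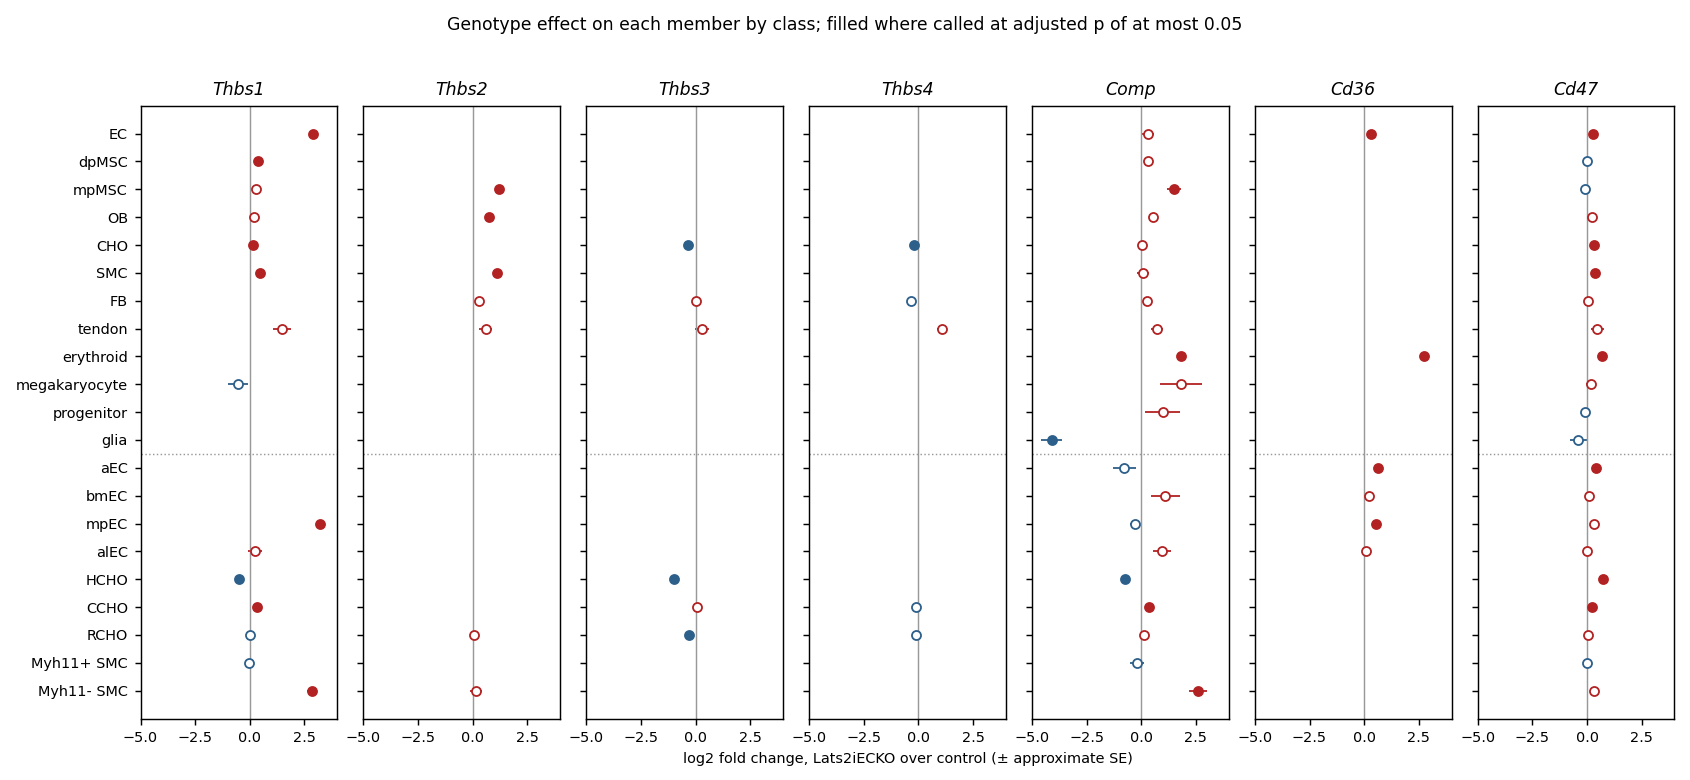
Log2 fold change, Lats2iECKO over control, of each member in the 12 main classes (above the dotted line) and the 9 subclasses, with bars of ± 1 approximate SE and filled points where the adjusted p was at most 0.05. Pairs that did not pass the filter have no point. Thbs1 lies at 2.92 in ECs and 3.23 in mpECs, and Thbs3 has its lowest value, -1.0, in HCHOs.

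Other genes of the pathway were counted from lists chosen for known function, with earlier results of these data known, and some of their genes are gate markers. Of 10 tested thrombospondin receptors and partners in ECs 4 rose and 3 fell, with a list median of -0.11 on the log2 scale beside 0.0042 over all genes. Sirpa, which encodes the CD47 ligand SIRP alpha, fell by 1.37, Stim1 fell by 0.64, and the integrin genes Itga3 and Itgav rose by 0.62 and 0.44. Of 6 tested targets and proteases 5 rose, among them Fn1 (fibronectin, 1.67), Tgfb2 (0.47) and Tgfb1 (0.36), and the gate marker Adamts5 fell by 1.84. Of 7 tested genes of CD36-linked fatty acid handling 2 rose and 4 fell, with Fabp5 at 2.39, Fabp4 at 0.78, Fyn at -0.62 and the adipogenic regulator Pparg at -1.26. Of 6 tested genes of CD47 and SIRP signalling 1 rose and 4 fell, and the cGMP-dependent kinase gene Prkg1 changed by -0.33. Of 11 matrix partners of COMP 2 were tested in ECs and neither was called. The background in ECs was 62.6%, and nothing particular to the lists is read from these counts.

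In mpECs 4 of 6 tested targets and proteases rose, with Fn1 at 3.26 ± 0.21, Tgfb2 at 1.98 ± 0.29, Adamts7, a metalloprotease that cleaves COMP, at 1.31 ± 0.26 and Tgfb1 at 0.39 ± 0.13 on the log2 scale, where 33.4% of all genes were called and 16.3% called higher. Of 9 tested receptors and partners 2 rose (Itga3 and Itgb1) and Stim1 fell. Targets and proteases also rose in the other EC subclasses, 4 of 5 tested in aECs, 3 of 6 in bmECs and 6 of 7 in alECs. In aECs and bmECs 1 each fell. Of all genes 24.5%, 14.1% and 5.72% were called in these 3 subclasses. The rise of the list was thus not particular to mpECs. In HCHOs 9 of 10 tested matrix partners of COMP fell and none rose, beside 28.0% of all genes called lower, with Matn3 at -1.38, Matn1 at -1.33, Col9a1 at -1.29 and Col9a2 at -1.25. These encode matrilins and collagen IX, which bind COMP in cartilage, and Matn3, Col9a1 and Col9a2 are chondrocyte gate markers. Mutant HCHOs lay mostly in cluster 1 and control HCHOs in cluster 27, and the part of that difference in the count was not tested. Of 12 tested receptors and partners in HCHOs 3 rose and 5 fell, with Vldlr at 2.35 and Cacna2d1, a calcium channel subunit that binds thrombospondins, at -1.20. In SMCs 5 of 6 tested fatty acid genes rose, led by the gate marker Lpl at 2.16 and the lipid droplet gene Plin2 at 1.79, where 24.9% of all genes were called higher. Within Myh11+ SMCs 0 of 5 tested genes of this list rose and 1 fell, and within Myh11- SMCs 3 of 6 rose. Of all genes 12.8% and 26.3% were called there. Myh11+ SMCs made up 20.7% and 21.6% of mutant and 60.4% and 60.8% of control SMCs, and the part of composition was not tested.

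The genes most like each member were ranked by Pearson correlation of log2(CPM + 1) over the 48 sums of 12 classes in 4 libraries, among 16623 genes with at least 10 CPM in a sum. These sums share libraries and depth, and the correlation is a description. Comp was the gene most like Thbs3 (r = 0.919), and Cilp2 ranked among the first 3 for both (0.935 and 0.882). Fmod (0.946) and Pcolce2 (0.943) were most like Comp, Mfap2 (0.900) most like Thbs2 and 4933400C23Rik (0.886) most like Thbs4. Thbs1 was most like Tsc22d1 (0.880), followed by Bmp2 at 0.785. The endothelial genes Ptprb (0.867), Flt1 (0.856) and Cdh5 (0.847) were most like Cd36, and Riok3 (0.860) was most like Cd47.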

How the data were processed

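The deposited matrices hold expected counts of UMIs, made by the authors with cutadapt 3.5 and STARsolo 2.7.10a on mm39 (per the labels' processing notes), with reads that map to several genes shared by expectation maximization, so members of multigene families can hold fractional counts. Totals were 69636600 to 85899079 UMIs per library. Barcodes with at least 1000 UMIs and 800 genes were gated to the class with the highest mean z-scored marker level (floor 0.5, margin 0.25, at least 3 markers with a count, or 2 for lists of up to 4) and to subclasses (floor 0.25). These limits were set after the gate and cluster counts had been seen. Members and lists were chosen with earlier results of these data known.

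Counts were summed per library and class, rounded, and tested with edgeR 4.0.16 (glmQLFit, TMM, Benjamini-Hochberg) in classes of at least 10 cells per library, on genes that passed filterByExpr and had a count in 20% of cells of either genotype. SEs are approximate (the size of the log2 fold change over the root of F). Cell-free RNA per class was the median, over other classes' markers, of their share relative to empty droplets. Scrublet called doublets, which stayed in. On sums of 5686 EC genes simulated from the fitted dispersions, with 200 genes changed, 100% of 2-fold changes were recovered, and 87% on 6627 mpEC genes. In the data 62.6% of EC genes were called, a setting that this simulation did not cover. Replicate libraries differed beyond sampling noise (chi-square per gene 1.77 to 4.67). Named genes were the members, the 3 genes most correlated with each, and at most 4 called genes per list and class by size. Alternatives were DESeq2 1.42.0, other filters, RLE factors, a replicate block, each library left out, cell-free RNA subtracted, the study's barcode filter, at least 2000 UMIs, doublets out, a stricter gate and classes from clusters. Gene coordinates are from GENCODE on GRCm39. Other gene models overlap Thbs1, Thbs3, Comp, Cd36 and Cd47, on the opposite strand or, for Cd47, also on the same strand, and the authors counted in STARsolo's GeneFull_Ex50pAS mode, which includes intronic reads and ranks sense and antisense overlaps.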

Additional observations from a re-analysis of the deposited data

Results flagged for a closer look

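Differences of the genotype effect between classes that passed the test are collected here, all on the log2 scale and as the first class minus the second. The cause of each was not tested.

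For Thbs1 the effect in ECs exceeded that in dpMSCs by 2.53, mpMSCs by 2.64, OBs by 2.77, chondrocytes by 2.77, SMCs by 2.47 and megakaryocytes by 3.85, and the effect in mpECs exceeded that in the other EC subclasses by 3.32. The difference of 3.29 from progenitors rested on 6 to 28 UMIs per library, with the means of both genotypes below the cell-free estimate. Thbs2 had not passed the filter in ECs, chondrocytes or erythroid cells, and in SMCs it passed only through the mutants. Its effect in ECs differed by -1.99 from mpMSCs, -1.50 from OBs, -1.13 from chondrocytes, -1.93 from SMCs and, at levels near the cell-free estimate, -2.99 from erythroid cells. For Cd36 the effect in ECs differed by -2.32 from that in erythroid cells.

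Among chondrocytes, HCHOs differed from the other subclasses by -0.68 for Thbs1, -0.90 for Thbs3, -1.01 for Comp and 0.57 for Cd47. CCHOs differed by 0.59 for Thbs1, 0.74 for Thbs3 and 0.68 for Comp, and RCHOs by 0.33 for Comp and -0.43 for Cd47. Myh11+ minus Myh11- SMCs gave -2.88 for Thbs1 and -2.90 for Comp. In Myh11- SMCs the Comp level lay below the cell-free estimate in both genotypes, and its change turned to -0.98 with classes from clusters. The Thbs1 change in Myh11- SMCs was 0.65 and not called with classes from clusters. The chondrocyte and smooth muscle contrasts were added after the levels had been seen.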

How the results depend on the processing

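Over 15 alternatives the 32 called pairs of member and class gave 474 values, of which 427 kept direction and call, 44 kept the direction only and 3 reversed, and 6 more could not be tested. The reversals were Comp in mpMSCs (-0.60) and Comp in Myh11- SMCs (-0.98) with classes from clusters and Cd47 in erythroid cells (-0.49) under the study's barcode filter. Of the 32 pairs, 15 were called in every alternative in which they could be tested, Thbs1 in ECs and mpECs among them. Cd36 in erythroid cells and Thbs2 in mpMSCs count among these, but could be tested in only 12 and 14 of the 15 alternatives. Called pairs in main classes and subclasses were 18 and 14 as reported, 15 and 10 with DESeq2, 24 and 16 with edgeR's own count filter alone, 26 and 19 with no filter, 17 and 16 after subtraction of cell-free RNA, 16 and 15 under the study's barcode filter, 19 and 12 without doublets, 17 and 15 with a stricter gate 16 and 14 with classes from clusters and 18 and 14 with RLE factors or at least 2000 UMIs. They ranged from 15 to 24 and from 11 to 17 when 1 library was left out. Called differences of the effect between the main classes and among the EC subclasses numbered 14, and 8 to 17 with 1 library left out, the lowest without control replicate 2.

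With a replicate block 20 and 19 pairs were called. The labels do not say that equal numbers pair the libraries, there are 2 pairs only, and deviations of same-numbered libraries correlated between -0.0523 and 0.113 across classes. Leaving out each library's highest cell turned no direction of the 32 called pairs, and moved Thbs2 in mpMSCs from 1.14 to 0.99, Comp in Myh11- SMCs from 2.46 to 1.71 and Comp in glia from -4.01 to -1.73, as log2 ratios of mean CPM, an alternative chosen after seeing the data. With 2 libraries per genotype and fewer than 60 tendon, megakaryocyte or glia cells in each mutant library, a change that was not called there may have been missed.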
